A study of Mus musculus with 12 samples.

Results

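The comparison set prostates of TRAMP mice fed phenethyl isothiocyanate (PEITC) against prostates of TRAMP mice on the control diet, both taken at 24 weeks of age. It used 4 of the 12 samples of the series, chosen by their titles: 2 PEITC libraries (replicates 0 and 1) and 2 control libraries (replicates 0 and 2), with the tumor sample of that age left out. All 4 came from mice of the strain C57BL/6-Tg(TRAMP)8247Ng/J, so the controls carried the transgene too. The control mice ate AIN-93M diet and the treated mice ate it with 0.05% PEITC by weight. The tissue was given as ventral and dorsolateral prostate together. TRAMP mice on the same diets at 16 weeks (2 libraries each) and wild type C57BL/6 mice on control diet (2 libraries at 24 weeks and 1 at 16 weeks) entered the fit and served for reference. Whether a library holds RNA of 1 animal or of several is not said in the sources used here. P-values therefore measure the spread between these samples, which may be technical.

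PEITC is an isothiocyanate released from cruciferous vegetables such as watercress. Isothiocyanates modify cysteines of the sensor protein KEAP1 and can thereby release the transcription factor NRF2, which switches on genes of glutathione synthesis and detoxification. They are also studied as inhibitors of histone deacetylases and as modifiers of DNA methylation. In TRAMP mice the probasin promoter drives SV40 T antigen in prostate epithelium, where it disables p53 and the retinoblastoma protein, and epithelial hyperplasia proceeds to carcinoma. Some TRAMP tumors take on a neuroendocrine character. The model therefore reports on a tumor driven by a viral oncogene whose own promoter answers to androgen.

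Expression was given as FPKM, a fragment count scaled by transcript length and by library total, for 24421 genes. Depth in reads is unknown. Relative depth was estimated from the most frequent ratio of low FPKM values to those of control replicate 0. By that estimate control replicate 0 was the deepest library, and the others of the comparison had 0.926 to 0.949 of its depth. The label of prostate tissue was checked against markers. All 16 luminal epithelial markers were above 1 FPKM in at least 1 of the 4 libraries, with a summed level of 3807 to 4305 FPKM. The 10 seminal vesicle genes summed to only 3.23 to 6.00 FPKM. The neutrophil list summed to 0.384 to 1.64 FPKM, and 6 of 9 red blood cell genes, hemoglobins among them, were listed at 0 in all 4 libraries. Across the tested genes, on the log2 scale, the control libraries correlated with each other at r = 0.9871 and the PEITC libraries at 0.9903. Pairs of unlike diet gave 0.9818 to 0.9899, so a control library could resemble a PEITC library more than its own replicate.

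No gene passed the test for diet at 24 weeks. Limma called 0 of 13324 genes (0%) at a Benjamini-Hochberg adjusted p under 0.05, and the smallest adjusted p was 0.478. At an unadjusted p under 0.05 there were 1252 genes, 547 higher (4.11%) and 705 lower (5.29%) with PEITC. In 3179 genes (23.9%) both PEITC libraries lay above both control libraries, and in 2760 (20.7%) both lay below. Of these, 21 (0.158%) were at least 2-fold higher and 45 (0.338%) at least 2-fold lower, on the log2(FPKM + 1) scale. The median log2 fold change of all tested genes was 0.01. Each diet difference at 24 weeks given below is therefore one that did not pass, with an adjusted p by limma of at least 0.478.

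The count of 0 turned on single libraries. Without control replicate 2 limma called 157 genes, 62 higher and 95 lower, and without PEITC replicate 0 it called 28, all higher. Without control replicate 0 or PEITC replicate 1 it called 0, with 664 and 558 genes at an unadjusted p under 0.05. A fit that leaves 1 library in a group assumes that this library varies like those of the other groups. With only the 4 libraries in the fit, 1 gene was called, Timp1.

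Some acute-phase and inflammatory genes stood lower in both PEITC libraries than in both control libraries. Acute-phase proteins are secreted in response to interleukin-6 and interleukin-1 through STAT3, C/EBP and NF-kB, mostly by liver but also by epithelia. Apart from Clca3a2, the genes of this group were picked with their values in view. Lrg1, a secreted leucine-rich glycoprotein of the acute phase (ENSMUSG00000037095.8, mm10 chromosome 17, 56119678 to 56122001), stood at 543 and 171 FPKM in the control libraries (replicates 0 and 2) and at 22.9 and 20.1 in the PEITC libraries (replicates 0 and 1). Both control values lay far above both PEITC values, and replicate 0 was the higher of the controls. The log2 fold change was -3.77 (SE 0.75, 95% interval -5.49 to -2.05).

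Clca3a2, a secreted regulator of chloride channels (ENSMUSG00000028262.13, chromosome 3, 144796559 to 144819494), had 37.3 and 15.9 FPKM in the controls and 0.782 and 0.712 with PEITC. Its difference was -3.86 on the log2 scale (SE 0.61, unadjusted p = 0.000231). Lcn2, the iron-siderophore binding protein lipocalin 2, had 114.6 and 61.3 FPKM against 10.9 and 10.4. The 2 PEITC values of each of these genes were close together, and the groups were far apart. Serpina3n, a serine protease inhibitor, gave 39.8 and 31.5 FPKM in the controls and 2.73 and 5.17 with PEITC. Saa1, serum amyloid A, differed in another way: control replicate 0 had 99.5 FPKM and control replicate 2 had 7.06, against 1.20 and 1.34 with PEITC. The greater part of its difference thus came from 1 library. Hp, haptoglobin, was instead highest in control replicate 2, with 31.4 and 66.7 FPKM in the controls and 3.85 and 13.7 with PEITC.

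Timp1, an inhibitor of matrix metalloproteinases induced in inflamed and remodelling tissue (ENSMUSG00000001131.11, chromosome X, 20870166 to 20874735), had 31.1 and 29.2 FPKM in the controls and 5.08 and 4.97 with PEITC. The log2 fold change was -2.37 (SE 0.78, unadjusted p = 0.0165 and adjusted p = 0.493 in the fit of 11 libraries). In the fit of the 4 libraries alone its adjusted p was 0.0218. Mmp3, stromelysin, a matrix protease, stood at 2.74 and 2.66 FPKM against 0.111 and 0.244. Feedback and signalling genes lay the same way. Socs3, the inhibitor induced by STAT3, had 11.2 and 4.96 FPKM in the controls against 1.79 and 1.86, and the NF-kB cofactor Bcl3 had 29.9 and 14.8 against 6.76 and 6.89. The monocyte chemokine Ccl7 had 4.23 and 5.41 FPKM against 0.624 and 1.01. Its relative Ccl2 had 1.47 and 3.76 against 0.866 and 0.545. Ly6c1, a surface antigen of monocytes and endothelium, had 90.0 and 68.1 FPKM against 19.0 and 21.2, and the metalloreductase Steap4 had 32.6 and 10.5 against 4.71 and 5.18. None of these values overlapped between the diets. In control replicate 0, Lrg1, Clca3a2, Saa1, Socs3 and Steap4 lay more than 1 log2 unit above all 7 other TRAMP libraries. They were among 23 such genes in that library. Hp was among 5 such genes in control replicate 2. The other inflammatory genes given above were in neither group.

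**Figure D1:**
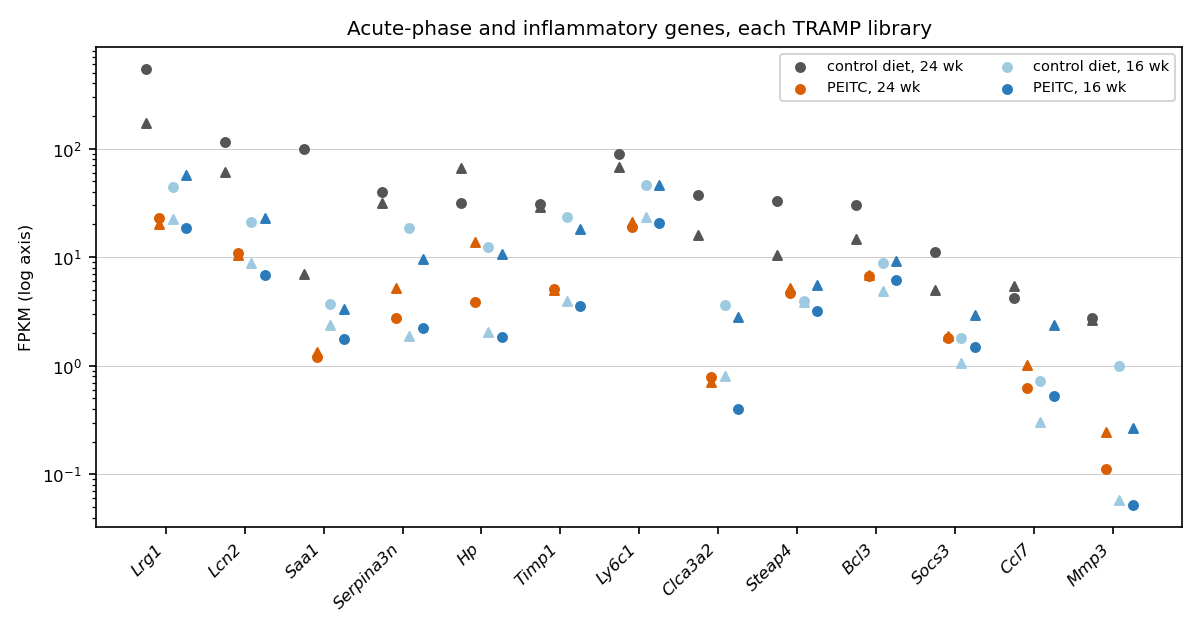
Each point is the FPKM of 1 TRAMP library (log axis) for 13 acute-phase and inflammatory genes, coloured by diet and age; circles are the first and triangles the second library of a group. For Timp1 the 24-week controls stand at 31.1 and 29.2 FPKM and the PEITC libraries at 5.08 and 4.97, while at 16 weeks 1 library of each diet is high.

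The same genes varied between libraries of 1 group at 16 weeks. Timp1 had 23.4 and 3.93 FPKM in the 16-week TRAMP controls (replicates 0 and 1) and 3.58 and 18.1 with PEITC, so 1 library of each diet was high. Serpina3n showed that split as well, with 18.6 and 1.89 FPKM in the controls and 2.23 and 9.59 with PEITC. In the 24-week wild type libraries Lcn2 stood at 134.6 and 11.4 FPKM. The spread within a group was thus at least as wide as the distance between the diets at 24 weeks for that gene. The PEITC libraries of 24 weeks lay within or close to the range of the 16-week TRAMP libraries: for Lrg1 that range was 18.6 to 57.0 FPKM, and for Socs3 1.05 to 2.94.

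As lists, these genes showed no member past the test. Of 12 tested complement and acute phase genes 0 were called, 4 had both PEITC libraries lower and 0 had both higher (median log2 fold change -0.51, against 0.01 for all tested genes). Without control replicate 2 that median was 0.05, and without control replicate 0 it was -0.76. Without PEITC replicate 0 it was -0.33, and without PEITC replicate 1 it was -0.64. Of 17 tested cytokine and NF-kB target genes 9 had both PEITC libraries lower and 0 both higher (median -0.31). The shares over all genes were 20.7% and 23.9%. Macrophage markers, with a median of -0.30, had 2 of 15 lower and 0 higher. That median was -0.79 without control replicate 0 and 0.16 without control replicate 2. Their summed level was 336 and 720 FPKM in the controls and 394 and 487 with PEITC. The complement component C1qa, a macrophage product, stood at 41.8 and 86.2 FPKM against 40.0 and 52.8, so control replicate 2 alone was high. The part of macrophage content in the lower inflammatory genes was not tested. In bulk tissue, fewer cells of a type and less RNA per cell cannot be told apart.

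Of the epithelial genes given next, Sfn was taken by its small p-value, and Krt6a, Krt17, Lamb3 and Pigr were picked with their values in view. Sfn, the 14-3-3 sigma protein of stratified epithelia and a p53 target, had 19.1 and 16.5 FPKM in the controls and 10.1 and 9.95 with PEITC (log2 fold change -0.76, SE 0.12, unadjusted p = 0.000213). Krt6a, a keratin of wounded epithelium, had 3.13 and 1.59 FPKM against 0.0883 and 0.0898. Krt17, another stress keratin, had 6.48 and 5.35 FPKM against 2.09 and 2.97, and Lamb3, a laminin chain of the basement membrane, 3.12 and 2.79 against 1.76 and 1.67. Of 12 tested basal markers 6 had both PEITC libraries lower and 3 both higher (median -0.16), beside 20.7% and 23.9% over all genes. Sfn, Krt17 and Lamb3 were among the 6 lower ones. At 16 weeks the basal median lay the other way, at 0.28, against 0.0064 for all tested genes. Pigr, the receptor that carries immunoglobulin A across epithelia, is itself induced by inflammatory cytokines. It stood at 1508 and 900.01 FPKM in the controls and at 594 and 672 with PEITC. Other genes taken by their small p-values were Ssbp4, a single-stranded DNA binding protein (36.1 and 31.3 FPKM against 22.3 and 22.1), the tryptophanyl-tRNA synthetase Wars (184 and 160 against 128 and 113) and the retinoic acid receptor Rara (7.29 and 6.49 against 4.54 and 4.33).

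Among genes higher with PEITC, Ctgf, a matricellular target of YAP and TGF-beta signalling, had 5.88 and 8.50 FPKM in the controls and 17.8 and 18.2 with PEITC. The log2 fold change was 1.23 (SE 0.23, unadjusted p = 0.000674), and the groups did not overlap. Fmo2, a flavin-containing monooxygenase, had 6.92 and 10.8 FPKM against 17.3 and 16.5, and Lhfpl1 had 5.68 and 6.30 against 8.28 and 8.65. The carboxylesterase Ces1d stood at 8.13 and 15.5 FPKM in the controls and 23.6 and 27.7 with PEITC. The methyltransferase Inmt stood at 5.90 and 19.2 against 43.2 and 45.8. In each of these genes control replicate 0 was below control replicate 2, by little only in Lhfpl1.

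Products of differentiated prostate epithelium were low in control replicate 0 in particular. Msmb, the secreted microseminoprotein, had 329 FPKM in that library, 978 in control replicate 2, and 1199 and 1069.8 with PEITC. The beta-defensin Defb1 had 11.4 and 99.3 against 145 and 149. For these genes control replicate 2 thus lay much closer to the PEITC libraries than to its own replicate. Both were among the 17 genes that lay more than 1 log2 unit below all 7 other TRAMP libraries in control replicate 0. The secretory list as a whole summed to 6101 and 8277 FPKM in the controls (replicates 0 and 2) and to 7428 and 7414 with PEITC. Pbsn, probasin, whose promoter drives the transgene, stood at 15.5 and 74.8 FPKM in the controls and 68.1 and 46.9 with PEITC, with overlap. Its log2 fold change was 0.70 (SE 0.73), and -0.40 without control replicate 0. Of 16 tested secretory genes 5 had both PEITC libraries higher and 2 both lower (median 0.15), and of 19 androgen-responsive genes 7 and 5 (median 0.03), beside 23.9% and 20.7% over all genes. The secretory median was -0.09 without control replicate 0 and 0.35 without control replicate 2, and the androgen-responsive median was -0.018 without control replicate 2 and 0.11 without PEITC replicate 0.

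A further library stood apart on the PEITC side. PEITC replicate 1 had 37 genes more than 1 log2 unit above all 7 other TRAMP libraries of both ages, against 23 in control replicate 0, 5 in control replicate 2 and 0 in PEITC replicate 0. Control replicate 0 had a further 17 genes as far below all the others, against 0 in PEITC replicate 1. Markers of neuroendocrine cells were among the 37. Chga, chromogranin A of secretory granules (ENSMUSG00000021194.6, chromosome 12, 102554969 to 102565028), had 0.133 and 0.140 FPKM in the controls, 0.141 in PEITC replicate 0 and 12.4 in replicate 1. Insm1, a neuroendocrine transcription factor, had 0.0207, 0.0327, 0 and 10.8 FPKM in the same order, and the amine-synthesis enzyme Ddc 0.120, 0.0789, 0.143 and 12.1. All 3 genes were near 0 outside that library. The granule protein Chgb was at 2.88 FPKM in PEITC replicate 1 and at most 0.0687 in the other 3.

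The 16 neuroendocrine markers summed to 4.19 and 6.52 FPKM in the controls, 5.21 in PEITC replicate 0 and 66.3 in PEITC replicate 1. Only 6 of them passed the filter on low values, which that library's own levels helped them pass. With replicate 0 left out, Chga, Insm1, Ddc and Syp were among the 28 calls. With replicate 1 left out, the median of the 6 was -0.01 in place of 1.30. Foxa2, a factor of neuroendocrine TRAMP tumors, stayed at 0.0428 FPKM in PEITC replicate 1. Adipocyte markers also differed between libraries of 1 diet: they summed to 114 and 331 FPKM in the controls and to 45.9 and 502 with PEITC. The adipokine Adipoq stood at 3.35 and 14.1 FPKM against 0.863 and 18.9.

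**Figure D2:**
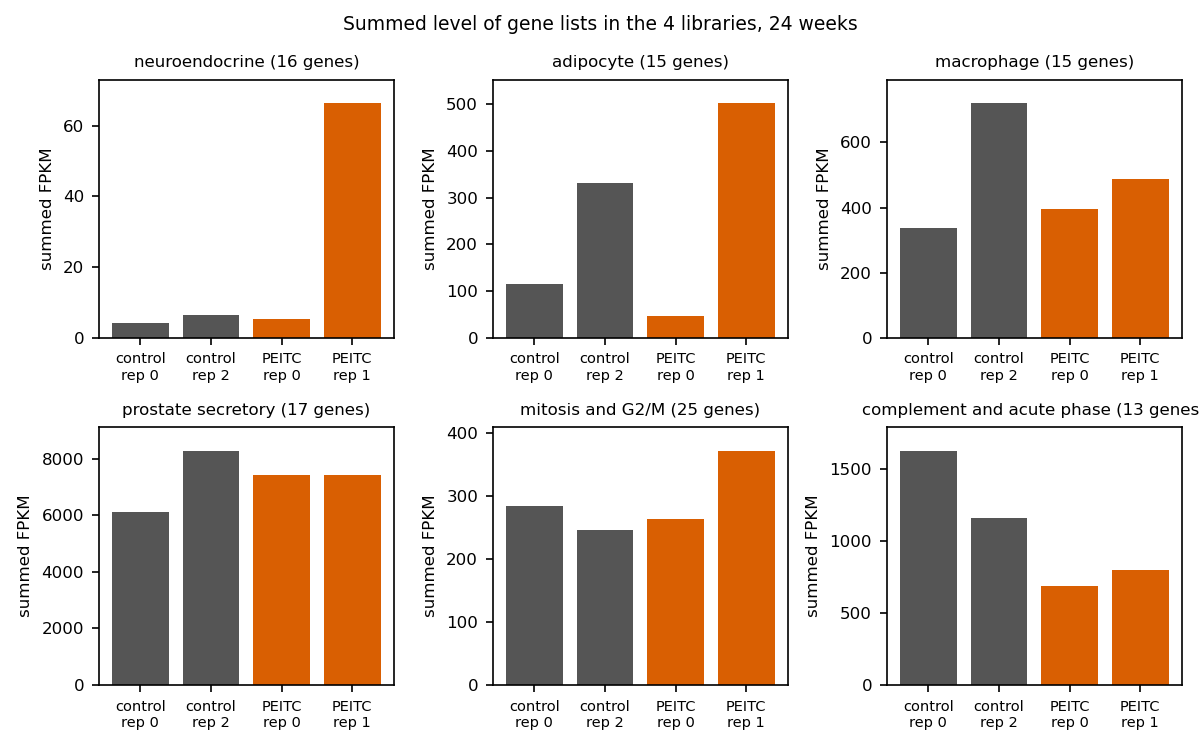
Bars give the summed FPKM of 6 gene lists in each of the 4 libraries at 24 weeks (controls grey, PEITC orange; axes start at 0; no error bar, since each bar is 1 library). The neuroendocrine sum is 66.3 in PEITC replicate 1 and at most 6.52 elsewhere, and the adipocyte sums of 331 and 502 fall in 1 library of each diet.

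Genes of the NRF2 response were examined next. Of 24 tested NRF2 targets 0 were called, 3 had both PEITC libraries higher and 10 both lower (median log2 fold change -0.05), beside 23.9% and 20.7% over all genes. Gclc, the catalytic subunit of glutathione synthesis (ENSMUSG00000032350.9, chromosome 9, 77754535 to 77794485), stood at 23.6 and 19.8 FPKM in the controls and 22.2 and 22.9 with PEITC. Its log2 fold change was 0.06, with a 95% interval of -0.17 to 0.29. The modifier subunit Gclm had 40.1 and 40.2 FPKM against 41.9 and 40.9 (0.04, interval -0.08 to 0.16). Both intervals contain 0, and a 2-fold difference in either subunit lies outside them.

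Hmox1, heme oxygenase 1, had 6.87 and 10.2 FPKM in the controls and 4.83 and 4.95 with PEITC, lower in both (-0.67, SE 0.24, unadjusted p = 0.0252). Nqo1, the quinone reductase, was too low to be tested, at 0.262 and 0.765 FPKM in the controls and 0.214 and 0.544 with PEITC. The thioredoxin reductase Txnrd1 stood at 39.2 and 39.9 against 36.8 and 37.9. The transaldolase Taldo1, of the pentose phosphate pathway, stood at 280 and 274 against 246 and 246. Glutathione transferases and peroxidases had 3 higher and 6 lower of 24 (median 0.01), beside the same shares of 23.9% and 20.7%. That median was -0.084 without control replicate 0 and -0.018 without PEITC replicate 1. Gpx2, an epithelial glutathione peroxidase, differed most among them, at 17.5 and 7.97 FPKM against 4.89 and 3.52 (-1.32, SE 0.38). It was also among the 23 genes more than 1 log2 unit above all 7 other TRAMP libraries in control replicate 0.

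Enzymes of DNA methylation and histone modification had a median close to 0 (0.02 over 25 tested members, 6 with both PEITC libraries higher and 5 both lower, beside 23.9% and 20.7% over all genes). It was -0.022 without control replicate 2. The histone deacetylase Hdac1 stood at 32.6 and 32.1 FPKM against 31.6 and 32.5 (-0.01, interval -0.15 to 0.13), and 0.0032 and 0.0060 under 2 other scalings. The maintenance methyltransferase Dnmt1 had 30.0 and 27.2 FPKM against 30.9 and 29.8 (0.08, interval -0.25 to 0.42). Uhrf1, which guides Dnmt1 to replicated DNA and is itself expressed in S phase, had 15.2 and 17.2 FPKM against 22.7 and 25.1 (0.54, interval 0.07 to 1.01).

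Proliferation genes gave no sign of lower levels with PEITC. Of 24 DNA replication and G1/S genes 20 had both PEITC libraries higher and 0 both lower, beside 23.9% and 20.7% over all genes. The sizes were small, with a median of 0.19 and a largest value of 0.48, for the helicase cofactor Cdc45 (7.89 and 10.1 FPKM against 12.1 and 13.6). The primase subunit Prim1 had 28.1 and 30.6 FPKM against 38.2 and 36.8. Of 25 mitosis genes 4 had both higher and 0 both lower (median 0.22). That median was -0.0031 without PEITC replicate 1, the library with the neuroendocrine genes. At 16 weeks the median was 0.18 for the replication list and 0.23 for the mitosis list, against 0.0064 for all tested genes. Mki67, the antigen of cycling cells, stood at 15.7 and 12.8 FPKM in the controls and 15.9 and 20.6 with PEITC (0.33, interval -0.09 to 0.75). Top2a stood at 31.7 and 25.3 against 29.5 and 42.0, with overlap. The cell cycle inhibitor Cdkn1a, a p53 target, had 8.52 and 7.66 FPKM against 3.66 and 5.84 (-0.69, SE 0.30). Cdkn2a, which accumulates where the retinoblastoma protein is disabled, had 136 and 120 FPKM against 99.0 and 104.

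**Figure D3:**
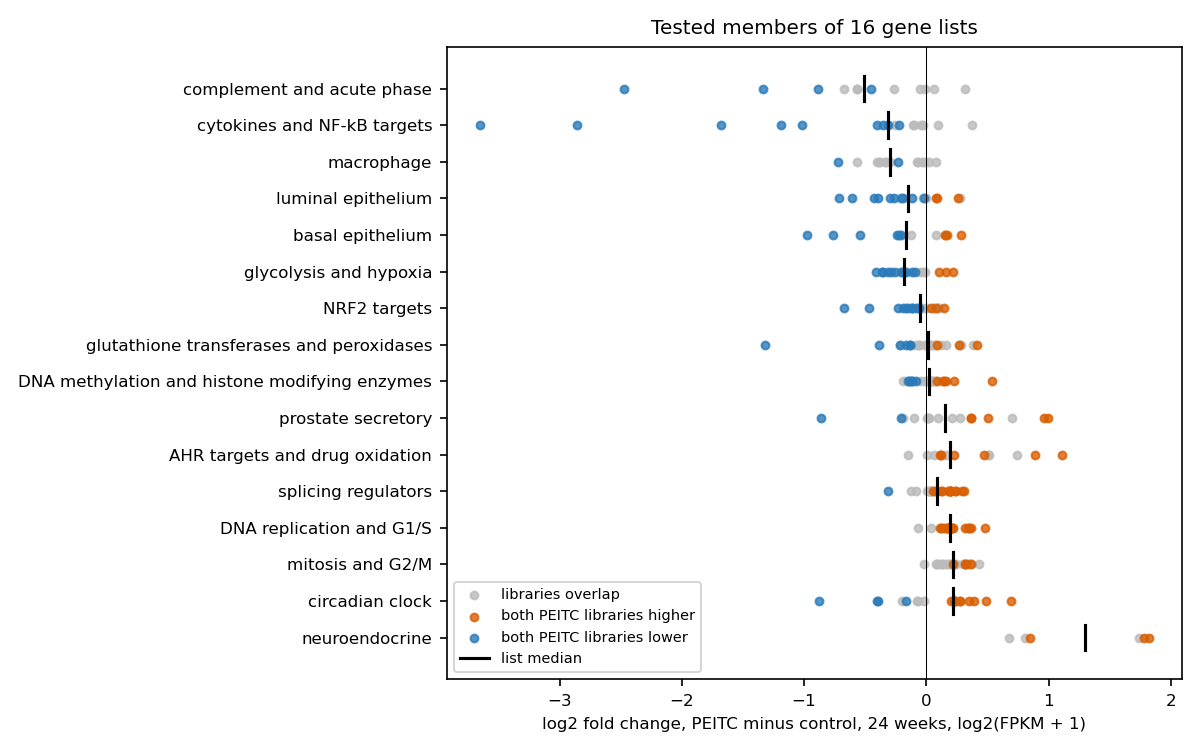
Each point is the log2 fold change (PEITC minus control, 24 weeks, on log2(FPKM + 1)) of 1 tested member of 16 gene lists, coloured by whether the libraries of the diets overlap; black bars are list medians. No member passed the test. The medians run from -0.51 for complement and acute phase genes to 1.30 for the 6 tested neuroendocrine genes. Without PEITC replicate 1 the neuroendocrine median was -0.01.

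Several genes of the circadian clock lay higher in both PEITC libraries than in both controls. In the clock, CLOCK and ARNTL activate the Per and Cry genes through E-box elements, the PER and CRY proteins feed back to inhibit them, and the factors DBP, TEF and HLF act through D-box elements. Of the 18 clock genes, all tested, 10 had both PEITC libraries higher and 4 both lower, beside 23.9% and 20.7% over all genes, and 0 were called. The median was 0.21, and 0.13 without control replicate 0. Per3, a member of the feedback arm (ENSMUSG00000028957.12, chromosome 4, 151003652 to 151044665), had 9.91 and 8.99 FPKM in the controls and 13.5 and 13.8 with PEITC. Its log2 fold change was 0.49 (SE 0.08, unadjusted p = 0.000221). Per2 stood at 6.78 and 6.70 against 8.91 and 9.38, and Per1 at 11.2 and 10.9 against 13.3 and 12.9. Cry1 had 12.9 and 14.1 FPKM against 16.7 and 15.4, and Cry2 16.1 and 15.8 against 20.0 and 19.0. All 5 of these Per and Cry genes were higher in both PEITC libraries.

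Hlf, an output factor, had 1.01 and 1.57 FPKM in the controls and 2.48 and 2.90 with PEITC. On the other side lay Bhlhe40, a repressor that competes at E-boxes, with 8.58 and 7.25 FPKM against 3.72 and 3.94, and the CLOCK relative Npas2, with 2.90 and 2.49 against 1.93 and 1.67. The activators Clock and Arntl overlapped between the diets. At 16 weeks the clock list had a median of -0.11 and Per3 was lower in both PEITC libraries (10.4 and 10.4 FPKM in the controls, 9.56 and 9.49 with PEITC). The labels give no hour of tissue collection, so hour and diet cannot be told apart. Except for Per3, the clock genes named here were picked with their values in view.

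The promoters of 3 of these genes are shown because their motifs belong to the 2 arms of the clock. They are the 250 bases before the start site on the gene's strand, from RefSeq (GRCm38.p6), with Per3 at chr4:151044666-151044915 on the minus strand, Per1 at chr11:69098699-69098948 on the plus strand and Cry1 at chr10:85185055-85185304 on the minus strand. Capitals mark the D-box form TTATGTAA in Per3 and the E-box CACGTG in Per1 and Cry1, searched on both strands.
Per3: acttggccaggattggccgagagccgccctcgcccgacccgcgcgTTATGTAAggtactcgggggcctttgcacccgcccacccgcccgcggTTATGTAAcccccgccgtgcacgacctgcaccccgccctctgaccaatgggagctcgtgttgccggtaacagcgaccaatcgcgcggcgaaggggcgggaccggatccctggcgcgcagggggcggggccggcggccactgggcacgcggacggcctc
Per1: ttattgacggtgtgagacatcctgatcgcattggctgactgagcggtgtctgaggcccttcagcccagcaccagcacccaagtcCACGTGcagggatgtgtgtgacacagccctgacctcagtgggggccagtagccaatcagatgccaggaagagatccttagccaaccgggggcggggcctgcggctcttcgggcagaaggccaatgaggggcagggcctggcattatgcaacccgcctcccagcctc
Cry1: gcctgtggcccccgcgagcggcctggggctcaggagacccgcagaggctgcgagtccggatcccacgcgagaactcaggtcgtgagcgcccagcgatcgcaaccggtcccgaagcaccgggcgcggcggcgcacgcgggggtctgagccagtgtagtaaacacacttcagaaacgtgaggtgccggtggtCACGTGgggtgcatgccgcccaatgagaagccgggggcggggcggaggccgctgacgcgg
Per3 held 2 matches, beginning 205 and 158 bases before the start. TTATGTAA was found in 0.819% of all 32851 promoter windows of that length and in 1 of the 15 clock genes with a promoter entry. Other forms of the D-box were not searched for, in Per1 or elsewhere. The E-box was found in 6.02% of all windows and in 5 of the 15, Bhlhe41, Ciart, Cry1, Per1 and Tef. The 16 inflammatory genes that lay lower were those with values above, from Lrg1 to Ccl2, with Lbp, Ly6c1, Steap4 and Pigr. Of these, 12 had an entry. The STAT motif TTCNNNGAA was in 2 of the 12, Socs3 and Steap4, and in 7.02% of all windows. It was also in 2 of the 15 clock genes, Dbp and Per1. The E-box was in 1 of the 12 inflammatory genes, Pigr, and TTATGTAA in 0. A gene counted if any of its windows held the motif, while the shares over all windows count single windows. The counts of genes and the shares of windows are therefore not alike. These are matches of letters only.

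**Figure D4:**
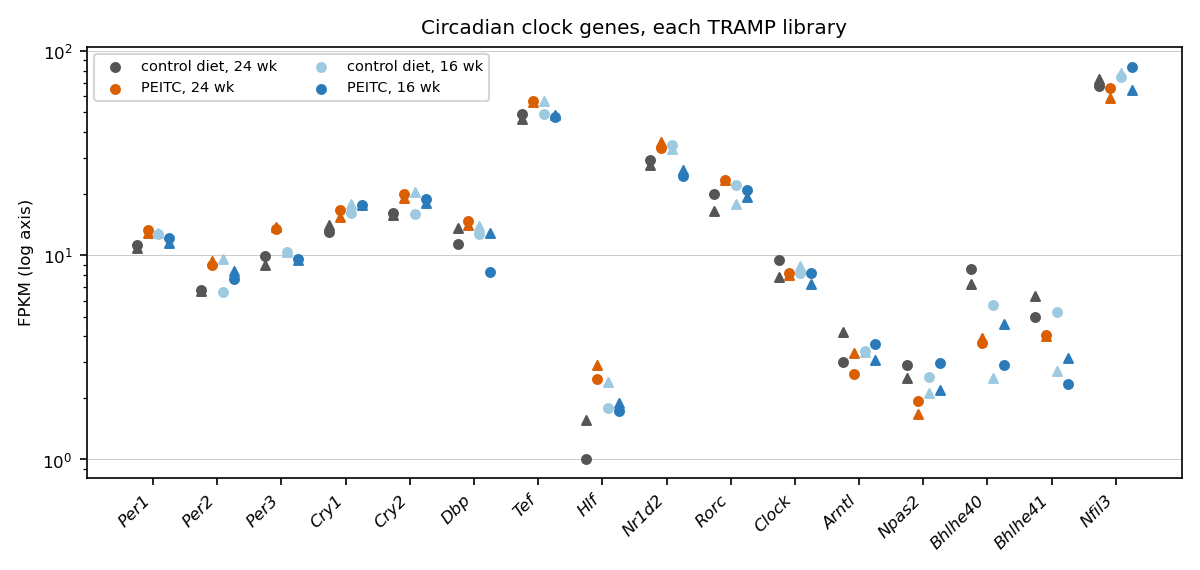
Each point is the FPKM of 1 TRAMP library (log axis) for 16 clock genes, coloured by diet and age; circles are the first and triangles the second library of a group. Per1, Per2, Per3, Cry1 and Cry2 lie higher in both 24-week PEITC libraries than in both 24-week controls, and Npas2 and Bhlhe40 lie lower.

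Whether the diet difference at 24 weeks departed from that at 16 weeks was tested as an interaction. Limma called 1 gene of 13324 (0.00751%), Cyp2b10, with 1713 at an unadjusted p under 0.05. Cyp2b10 encodes a cytochrome P450 that the receptor CAR induces in liver (ENSMUSG00000030483.14, chromosome 7, 25897620 to 25926624). At 24 weeks it had 14.6 and 14.1 FPKM in the controls and 20.8 and 18.9 with PEITC. At 16 weeks it had 46.5 and 48.6 in the controls and 24.1 and 27.3 with PEITC. The 2 diets did not overlap at either age, and PEITC was the higher at 24 weeks and the lower at 16 weeks. The difference between the ages was 1.30 on the log2 scale (SE 0.10, adjusted p = 0.0234). The controls of the 2 ages differed more than the diets did, and wild type libraries stood higher still, at 108 to 113 FPKM. The adjusted p was 0.149 without 24-week control replicate 0, 0.0853 without 24-week PEITC replicate 1, 0.145 with only the 8 TRAMP libraries in the fit and 0.0906 without the intensity trend.

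In the other direction no gene passed. Among genes whose mean reached 5 FPKM in 1 of the TRAMP groups, the 5 smallest p-values were those of Cenpb, Slc25a10, Tmem203, Sfn and Ssbp4 (adjusted p = 0.303 each by limma). Cenpb, a centromere protein, had 123 and 109 FPKM against 104 and 99.1 at 24 weeks, and 92.7 and 96.1 against 129 and 129.8 at 16 weeks. The mitochondrial carrier Slc25a10 had 37.1 and 35.9 against 32.3 and 30.6, then 31.7 and 32.6 against 37.0 and 37.5. Tmem203 had 28.9 and 27.6 against 23.02 and 22.8, then 24.4 and 25.4 against 27.2 and 29.1. In Cenpb, Slc25a10 and Tmem203, PEITC libraries were lower at 24 weeks and higher at 16 weeks.

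**Figure D5:**
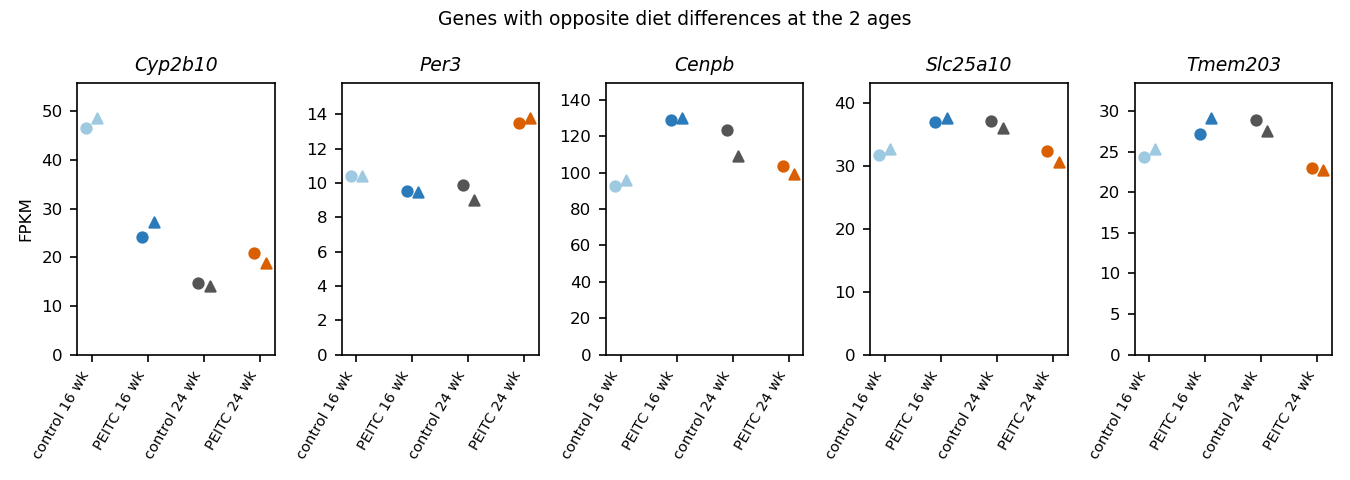
FPKM of 5 genes in each TRAMP library by diet and age (linear axes from 0; circles the first and triangles the second library). PEITC libraries lie on opposite sides of their controls at the 2 ages; only Cyp2b10 passed the test of the difference, with 46.5 and 48.6 FPKM in the 16-week controls and 14.6 and 14.1 in the 24-week controls.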

How the data were processed

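The authors deposited one FPKM value per gene and library, and no read counts. Per the submitters' processing notes the tools included HISAT2, Picard and featureCounts with the genome build mm10. Their versions, the gene annotation and the total behind the scaling were not given in the sources used here.

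Values were taken as log2(FPKM + 1), which understates the fold changes of low genes. The test took the 13324 of 24421 genes whose mean over the 11 prostate libraries reached 0.5 FPKM, in limma 3.58.1 (R 4.3.3). The fit had a mean for each of 6 groups, 5 residual degrees of freedom and an intensity trend. P-values are two-sided and adjusted by Benjamini-Hochberg over all tested genes, and an adjusted p under 0.05 was called. An exact permutation of 2 against 2 libraries cannot go below 0.333, so none was run. The script was tested on simulated data. Gene positions came from GENCODE M21 (GRCm38, the assembly of mm10), and promoters from RefSeq. For the GC and length correction, 95.7% of symbols were matched to GENCODE M21 transcripts.

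The members and the 53 gene lists were chosen with earlier results of these data known. For each direction the rule for named genes took called genes that averaged 5 FPKM or more in the higher group and whose libraries do not overlap, or, as none was called, the 5 smallest p-values. For the difference between ages it took called genes or the 5 smallest p-values of a direction. It added Pbsn, Mki67, Top2a, Nqo1, Gclc, Hmox1, Cdkn1a, Cdkn2a, Dnmt1 and Hdac1. Some genes of the rule and of the lists are not reported here. Other genes were chosen after their values were seen. Alternatives were other pseudocounts (0.1 and 5), filters, libraries in the fit, scalings, variance models, a GC and length correction, and leaving out each library of the comparison.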

Additional observations from a re-analysis of the deposited data

Results flagged for a closer look

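Some genes had diet differences at 24 and 16 weeks that lay in opposite directions with libraries that did not overlap at either age. For Cyp2b10 the difference of the log2 fold changes was 1.30, and it was the one that passed limma's test (adjusted p = 0.0234). The others did not pass (adjusted p = 0.303 each): 0.60 for Per3, -0.68 for Ssbp4, -0.93 for Sfn, -0.60 for Rara, -0.64 for Cenpb, -0.41 for Slc25a10 and -0.46 for Tmem203. These genes had been taken by the rule for named genes, for their small p-values in 1 of the 2 comparisons.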

How the results depend on the processing

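For diet at 24 weeks limma called 0 genes in all alternatives but 4. Without a filter on low values it called 8 (7 higher and 1 lower), of which 7 were microRNA or snoRNA genes, and with only the 4 libraries in the fit it called 1, lower. Leaving out 1 library gave 0 to 157 calls, 0 to 62 higher and 0 to 95 lower. For the difference between ages, where 1 gene was called, it called 10 without the filter (7 higher and 3 lower), 0 with only the 8 libraries compared and 0 without the intensity trend. Leaving out 1 library gave 0 to 121 calls, 0 to 59 higher and 0 to 62 lower. The cause of these shifts was not tested.

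No paired analysis was possible because the 24-week groups share only the replicate number 0. With a replicate block within 16 weeks, the difference between ages gave 1 call, Cyp2b10, as without it (adjusted p = 0.0353).

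Small differences changed sign: Hdac1 was 0.0032 with quantile normalization and 0.0060 with scaling to all but the 50 most abundant genes, and Gclm was -0.035 after the GC and length correction. Leaving out 1 library moved Hdac1 between -0.032 and 0.0051, Gclc between -0.059 and 0.18, Pbsn between -0.40 and 1.80, C1qa between -0.89 and 0.13 and Lyz2 between -0.81 and 0.98. It moved Insm1 between -0.038 and 3.53, Syp between -0.035 and 1.39, Adipoq between -2.12 and 1.29 and Fabp4 between -2.10 and 1.43. Depth in reads is unknown, so no counting error could be given.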
